A study of Homo sapiens with 4 samples.

Results

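HuR-bound RNA was examined over 9 genes known as targets of the transcription factor p53 that act in cell cycle arrest and stress handling: CDKN1A, BTG2, GADD45A, CCNG1, PLK2, SESN1, SESN2, PPM1D and GDF15. A peak belonged to a gene when it overlapped the gene's span on hg19 by at least 1 bp. By that rule the genes held 18 of the 36216 peaks listed after 5 Gy and 23 of the 47930 peaks listed at 0 Gy. The cells were WS1, a human skin fibroblast line, given 5 Gy of X-rays or 0 Gy. Each dose was covered by 1 HuR immunoprecipitate and 1 control IgG immunoprecipitate, so that each group is 1 library and neither list has replicates. No p-value was therefore computed, and every difference between the doses is a difference between these lists. The labels give no time after irradiation and no p53 status, and the fibroblast label was not checked against marker genes because no annotation of hg19 was used here.

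p53 is a transcription factor that is stabilised after DNA damage and raises the transcription of genes that halt the cell cycle, help repair or trigger death. HuR, encoded by ELAVL1, binds U-rich and AU-rich stretches, mostly in introns and 3′ untranslated regions, and is known for stabilising mRNAs that are otherwise short-lived. Several p53 targets, CDKN1A among them, have been described as HuR-bound mRNAs. A peak in these lists marks a stretch of the genome from which the HuR library held more reads than the IgG library of the same dose. The amount of a transcript in the cells and the share of it held by HuR cannot be told apart from the lists, and neither can a change in every cell from a change in some of them. A missing peak means that no stretch passed the authors' threshold, not that the RNA was unbound.

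Of the 9 genes, 7 carried at least 1 peak after 5 Gy and 6 at 0 Gy. CDKN1A, BTG2, CCNG1, PLK2, SESN1 and PPM1D had peaks at both doses. GADD45A had a peak after 5 Gy only. SESN2 and GDF15 had none at either dose.

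**Figure D1:**
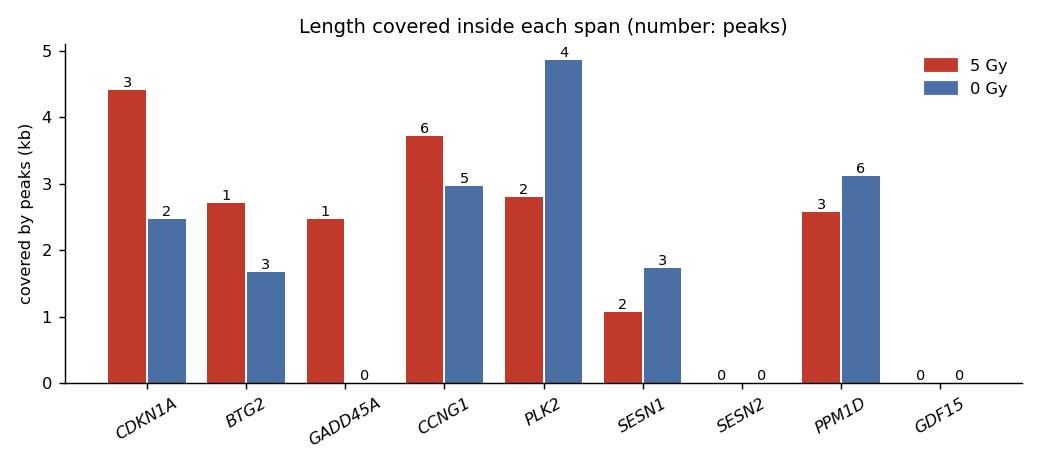
Length of each gene span covered by peaks (vertical axis, kb), with 5 Gy in red on the left and 0 Gy in blue on the right of each pair. The number on a bar is the count of peaks. CDKN1A, BTG2, GADD45A and CCNG1 had more covered length at 5 Gy, and PLK2, SESN1 and PPM1D had less. SESN1 and PPM1D had more with equal list sizes, a setting that drops 0 Gy peaks alone.

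The peaks of 4 genes touched the first 500 bp of the span at 1 dose or both. The sequence around the outermost annotated start of each of these genes is shown for reference, and the peaks were not placed on it. The sequences are RefSeq promoters of GRCh38.p14, read in the direction of transcription. The 50 transcribed bases are in capitals after the 250 bases before the start. They lie at chr5:163437321-163437620 for CCNG1 (+ strand), chr5:58460037-58460336 for PLK2 (- strand), chr6:109094797-109095096 for SESN1 (- strand) and chr17:60599943-60600242 for PPM1D (+ strand).
CCNG1: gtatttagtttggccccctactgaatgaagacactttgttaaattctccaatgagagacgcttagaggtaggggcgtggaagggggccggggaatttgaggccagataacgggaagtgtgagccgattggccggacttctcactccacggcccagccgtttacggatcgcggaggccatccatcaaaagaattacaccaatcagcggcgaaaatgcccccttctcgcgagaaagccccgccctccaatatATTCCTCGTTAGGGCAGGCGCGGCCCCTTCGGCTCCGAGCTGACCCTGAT
PLK2: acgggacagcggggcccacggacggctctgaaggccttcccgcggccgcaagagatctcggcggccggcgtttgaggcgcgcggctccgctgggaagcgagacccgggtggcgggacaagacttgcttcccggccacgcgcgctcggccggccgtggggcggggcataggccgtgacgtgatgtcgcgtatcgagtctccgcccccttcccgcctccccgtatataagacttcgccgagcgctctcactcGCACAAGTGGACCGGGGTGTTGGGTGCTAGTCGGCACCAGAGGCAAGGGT
SESN1: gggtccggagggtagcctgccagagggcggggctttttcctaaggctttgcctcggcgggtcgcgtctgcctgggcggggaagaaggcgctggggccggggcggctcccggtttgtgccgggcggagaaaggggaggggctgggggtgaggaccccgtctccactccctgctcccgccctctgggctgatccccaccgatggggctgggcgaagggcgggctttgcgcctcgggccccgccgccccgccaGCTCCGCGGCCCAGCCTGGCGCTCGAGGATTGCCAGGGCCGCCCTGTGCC
PPM1D: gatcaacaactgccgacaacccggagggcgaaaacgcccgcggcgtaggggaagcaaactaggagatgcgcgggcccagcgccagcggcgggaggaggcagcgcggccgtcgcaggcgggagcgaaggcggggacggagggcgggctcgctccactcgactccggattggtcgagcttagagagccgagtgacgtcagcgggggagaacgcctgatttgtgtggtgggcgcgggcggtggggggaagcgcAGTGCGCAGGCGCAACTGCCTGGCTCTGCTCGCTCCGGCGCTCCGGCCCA

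Promoters of 8 of the 9 genes were found in the table, with 11 starts in all. None of the 11 held ATTTA or TTTTT, searched on the transcribed strand, in the 50 transcribed bases. Of all 35116 promoters in the table, 2.28% held ATTTA and 3.72% held TTTTT there. The p53 half-site, a single decamer and only part of a full p53 site, was searched on both strands. It was counted once where the strands overlap. The half-site occurred in 2 of the 11, a start of PLK2 and an inner start of SESN1. It was present in 6.63% of all 35116 promoters. In the PLK2 promoter shown it begins 132 bases before the start. The matches describe letters in these windows and were not set against the peaks.

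CDKN1A encodes p21, the inhibitor of cyclin-dependent kinases that carries much of the p53-driven arrest. After 5 Gy its span on chromosome 6 (36644237 to 36655116, 10880 bp) held 3 peaks covering 4411 bp, and at 0 Gy it held 2 peaks covering 2471 bp. The covered length was 1.79 times as long at 5 Gy. Both lists had their highest-scoring CDKN1A peak at the 3′ end of the gene. The 5 Gy peak there ran from 36653279 to 36655145 (1867 bp) with a score of 1621.37, and the 0 Gy peak ran from 36653346 to 36655117 (1772 bp) with a score of 713.37. The scores are those of the authors and grow with read depth, which is unknown here, so they rank peaks within a list and are not compared between doses. Of the peaks in its own list, 9.37% scored as high as or higher than the 5 Gy peak, and 15.5% scored as high as or higher than the 0 Gy peak.

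Outside the 3′ end, the CDKN1A peaks of the doses lay in different places. After 5 Gy there were peaks from 36646447 to 36647528 (1082 bp, score 274.28) and from 36647645 to 36649135 (1491 bp, score 310.60), and the nearest 0 Gy peak was 4117 bp from the first and 2510 bp from the second. At 0 Gy there was a peak from 36651646 to 36652345 (700 bp, score 109.51), with the nearest 5 Gy peak 933 bp away. Of the length covered at either dose, 34.7% was covered at both. In the RefSeq table the gene overlaps DINOL, a damage-induced noncoding RNA, and the lists hold no strand, so reads of the one cannot be told apart from reads of the other where they overlap. The table also places the promoter of CDKN1A inside the gene's outermost limits, so distances from the 5′ end of the span are not distances from that start.

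BTG2, an antiproliferative partner of the mRNA deadenylation machinery, had 1 peak after 5 Gy and 3 at 0 Gy. The 5 Gy peak covered 2704 bp of chromosome 1 (203275993 to 203278696, score 549.15). All 3 of the 0 Gy peaks lay wholly inside it, with lengths of 465, 520 and 686 bp and scores of 155.22, 92.16 and 157.87. BTG2 thus had fewer peaks and more covered length after 5 Gy, 2704 bp against 1671 bp at 0 Gy, or 1.62 times as much. The 1033 bp covered at 5 Gy alone lay between the 0 Gy peaks and on either side of them. Peaks of the 5 Gy list were also longer over the whole genome, with a median of 559 bp against 448 bp at 0 Gy, and the part of this in the BTG2 difference was not tested.

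GADD45A, a stress protein that binds PCNA and p21 and takes part in the G2 checkpoint, had 1 peak after 5 Gy and none at 0 Gy. The 5 Gy peak ran over 2567 bp of chromosome 1 (68151550 to 68154116) with a score of 317.17 and covered 78.2% of the 3162 bp span. The nearest 0 Gy peak lay 13011 bp from it. Within 50 kb on either side of the span the lists were alike, with 2 peaks over 4394 bp at 5 Gy and 2 peaks over 4414 bp at 0 Gy.

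CCNG1 encodes cyclin G1, which recruits a phosphatase to the p53 regulator MDM2. It had 6 peaks over 3713 bp after 5 Gy and 5 peaks over 2972 bp at 0 Gy, a covered length 1.25 times as long at 5 Gy. Every 0 Gy peak of CCNG1 overlapped a 5 Gy peak, and 76.8% of the length covered at either dose was covered at both. This was the closest match between the doses among the 6 genes with peaks at both. The exception was a 180 bp peak of the 5 Gy list (162868996 to 162869175, score 70.32) that lay 183 bp from the nearest 0 Gy peak. The highest-scoring peak was again at the 3′ end, from 162870412 to 162872123 (1712 bp, score 1199.29) at 5 Gy and from 162870659 to 162872051 (1393 bp, score 1361.86) at 0 Gy. The 4 other 5 Gy peaks with a counterpart scored from 129.52 to 197.10, and between 39.8% and 54.2% of the 5 Gy list scored as high or higher. Their 0 Gy counterparts scored from 308.40 to 623.20, and between 16.9% and 27.4% of the 0 Gy list scored as high or higher. These ranks come from lists of different length and show no change by themselves. In the RefSeq table NUDCD2 overlaps CCNG1 and HMMR lies beside it. Without strand, reads of NUDCD2 cannot be told apart from those of CCNG1 where they overlap. Within 50 kb of the span there were 3 further peaks over 2969 bp at 5 Gy and 4 over 2965 bp at 0 Gy.

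PLK2, a polo-like kinase of the early stress response, had less cover after 5 Gy, mainly in the 5′ part of the gene. It had 2 peaks over 2801 bp after 5 Gy and 4 peaks over 4862 bp at 0 Gy, a ratio of 0.576. PLK2 is read from the - strand, and its 3′ end carried the highest-scoring peak at both doses. That peak ran from 57749574 to 57751659 (2086 bp, score 1176.25) at 5 Gy and from 57749812 to 57750921 (1110 bp, score 1030.53) at 0 Gy. The 5 Gy peak also reached a second 0 Gy peak (57751016 to 57752153, score 780.37), and reached 235 bp past the span. A 1742 bp peak of the 0 Gy list (57754192 to 57755933, score 584.65), which starts 154 bp from the 5′ end, had no 5 Gy counterpart, with 747 bp between it and the closest 5 Gy peak. Of the first 500 bp of PLK2, peaks covered 0 bp after 5 Gy and 346 bp at 0 Gy.

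**Figure D2:**
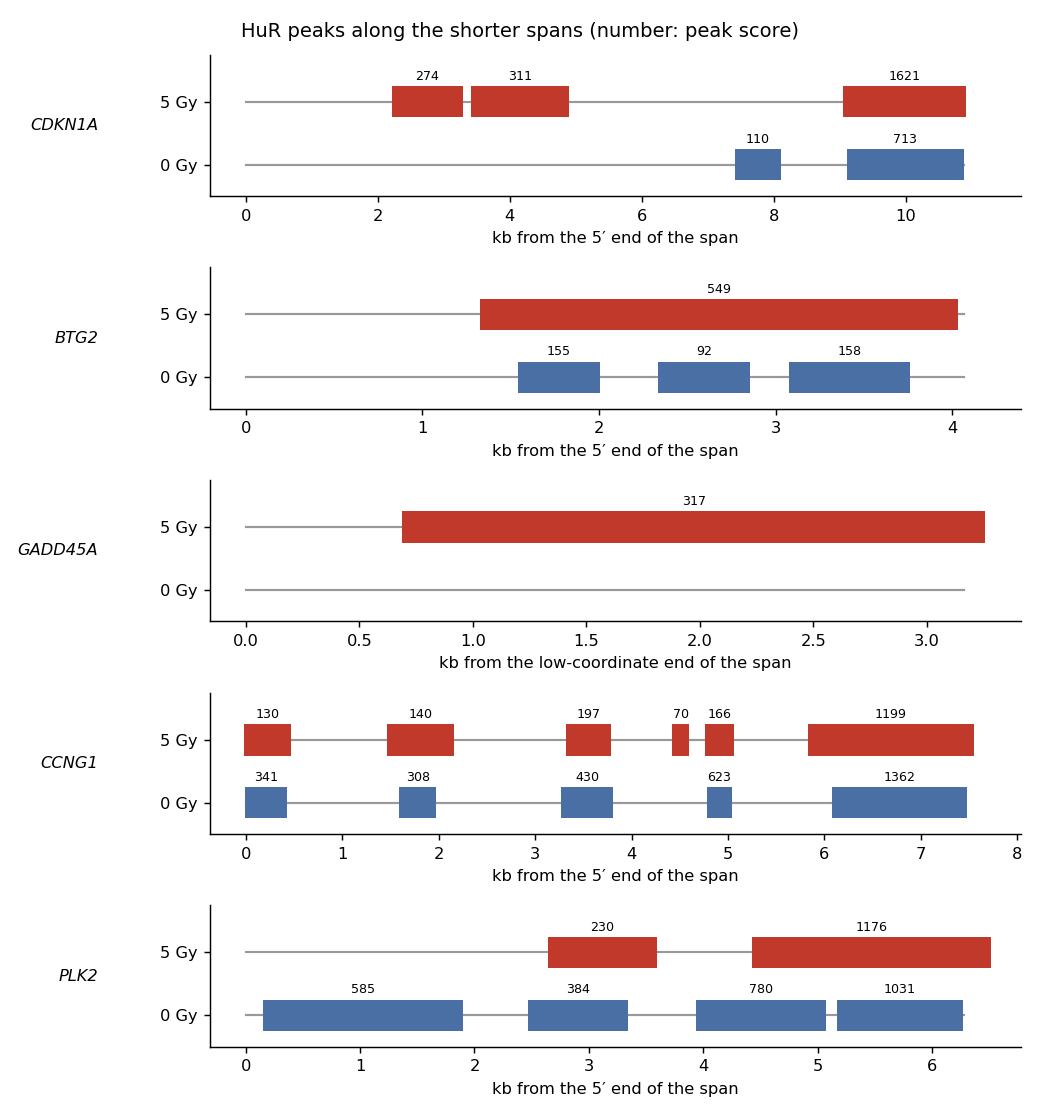
Peaks along the 5 shorter spans that hold any, drawn to scale in kb from the 5′ end of the span (GADD45A, whose strand was not in the table used, from its low-coordinate end), with 5 Gy in red above 0 Gy in blue. The grey line is the span and the number over a peak is its score. CDKN1A, CCNG1 and PLK2 have their highest score at the 3′ end at both doses, 1 BTG2 peak at 5 Gy spans all 3 at 0 Gy, and the first PLK2 peak is in the 0 Gy list only.

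SESN1 and SESN2 encode sestrins, stress proteins that restrain mTORC1 signalling. SESN1 spans 108383 bp of chromosome 6, of which peaks covered 1073 bp after 5 Gy (2 peaks) and 1728 bp at 0 Gy (3 peaks). The ratio was 0.621 and turned to 1.095 with equal list sizes. In that setting the 0 Gy list is reduced by score to the length of the 5 Gy list. Peaks thus drop out at 0 Gy alone, so the setting can raise a ratio but not lower it. SESN1 was the one gene among the 6 placed genes whose highest-scoring peak lay at the 5′ end at both doses. That peak ran from 109414945 to 109415691 (747 bp, score 159.75) at 5 Gy and from 109415419 to 109416040 (622 bp, score 183.62) at 0 Gy. At the 3′ end of SESN1 only the 0 Gy list had a peak (109307619 to 109308387, 769 bp, score 66.30); 91.1% of that list scored as high or higher. The 5 Gy list instead had a 326 bp peak (109314838 to 109315163, score 87.40) 6450 bp away. In the RefSeq table SESN1 overlaps ARMC2 and RNU6-653P, whose reads cannot be told apart from its own without strand.

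SESN2 had no peak in its 23040 bp span on chromosome 1 (28585963 to 28609002) in either list. The nearest peak lay 26.4 kb away at both doses, with a score of 296.31 at 5 Gy and 376.95 at 0 Gy. Within 50 kb of SESN2 there was 1 peak over 340 bp at 5 Gy and there were 4 peaks over 1778 bp at 0 Gy. GDF15, a secreted stress cytokine, likewise had no peak in its 3019 bp span on chromosome 19 (18496968 to 18499986). Its nearest peak lay 16.2 kb away at both doses, with a score of 1365.87 at 5 Gy and 2152.61 at 0 Gy. Whether these transcripts were present in the cells was not analysed here.

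PPM1D encodes WIP1, the phosphatase that turns the damage response off. Its 64306 bp span on chromosome 17 (58677544 to 58741849) held 3 peaks over 2570 bp after 5 Gy and 6 peaks over 3117 bp at 0 Gy, a ratio of 0.825. The ratio was 0.891 over whole peaks, 0.934 at scores of at least 100 and 1.04 with equal list sizes. Its direction turned only in the last of these, a setting that cannot lower a ratio. Both lists had peaks at each end of the gene. At the 5′ end these were 803 bp (58677600 to 58678402, score 111.10) at 5 Gy and 695 bp (58677558 to 58678252, score 201.86) at 0 Gy. At the 3′ end, 1 peak of 3299 bp (58740341 to 58743639, score 1079.25) at 5 Gy lay over a pair of 0 Gy peaks, 955 bp (58740342 to 58741296, score 142.68) and 2327 bp (58741300 to 58743626, score 630.79), which are separated by 3 bp. These peaks ran 1790 bp past the span at 5 Gy and 1777 bp at 0 Gy, so the covered length inside the span leaves out much of them. Between the ends the doses shared no peak: the 5 Gy list had 1 (258 bp, score 86.02) and the 0 Gy list had 3 (275 to 326 bp, scores from 61.83 to 145.03). PPM1D overlaps RNU6-623P in the RefSeq table, and their reads cannot be told apart without strand.

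**Figure D3:**
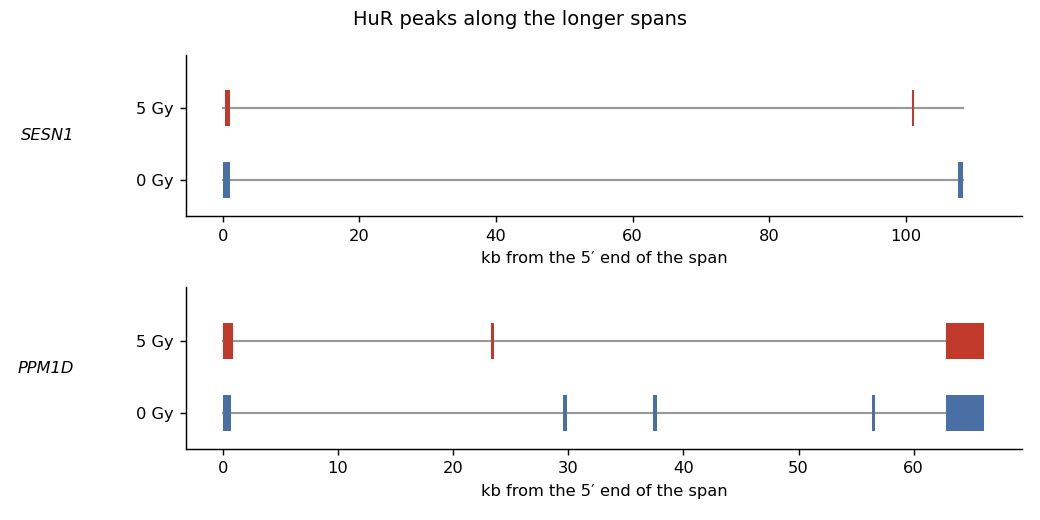
Peaks along SESN1 and PPM1D, drawn to scale in kb from the 5′ end of the span, with 5 Gy in red above 0 Gy in blue and the span as a grey line. Both genes are covered at the 5′ end at both doses, PPM1D is covered at the 3′ end at both, and the short peaks between the ends differ between the lists.

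Cover at the 3′ end was seen in most of the genes with peaks and a known strand. The rule for the genes names spans and no peak values, but was set with earlier results of these data known. The strand was known for 6 genes with peaks at both doses. The last 500 bp of the span carried peaks in 5 of these 6 after 5 Gy and in 6 of 6 at 0 Gy. The highest-scoring peak of the gene reached the last 500 bp in 5 of 6 genes at each dose, SESN1 being the exception. The first 500 bp carried peaks in 3 genes after 5 Gy (CCNG1, SESN1 and PPM1D) and in 4 at 0 Gy (the same genes and PLK2). The annotated promoter of CDKN1A lies inside that gene's outermost limits, so this count says nothing of cover at its start. CDKN1A, BTG2, PLK2 and PPM1D had no further peak within 50 kb of the span in either list, so their peaks stood alone. The same counts over other genes could not be made without an hg19 annotation, so no share of genes in general can be set beside them.

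The scores spread widely within genes. After 5 Gy, 4 of the 18 peaks scored at least 1000, 1 each in CDKN1A, CCNG1, PLK2 and PPM1D, and 13.1% of all 5 Gy peaks did so. At 0 Gy, 2 of the 23 peaks scored at least 1000, 1 each in CCNG1 and PLK2, and 12.2% of all 0 Gy peaks did so. Scores of the lists are not on a common scale of depth, so these counts are read within each list only. The highest score in the genes was 1621.37 at 5 Gy (CDKN1A) and 1361.86 at 0 Gy (CCNG1). Both whole lists had the same highest score, 3233.06, and whether this is a limit of the scoring was not tested.

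**Figure D4:**
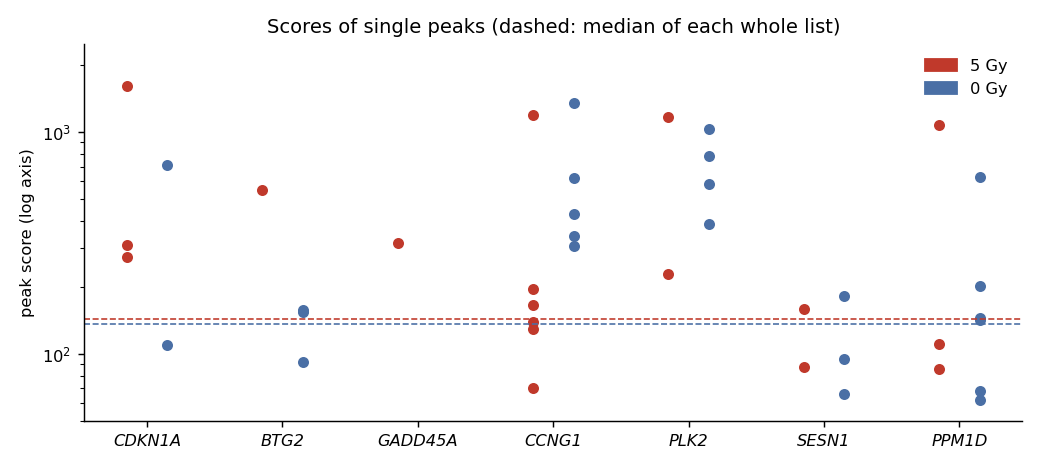
Score of each peak (vertical log axis) by gene, with 5 Gy in red on the left and 0 Gy in blue on the right, and dashed lines at the median of each whole list (143.4 at 5 Gy and 136.6 at 0 Gy). Scores of the lists are not on a common scale of depth. The highest peaks of CDKN1A, CCNG1, PLK2 and PPM1D stand well above the medians in both lists, and the SESN1 peaks lie near or below them.

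Of the 18 peaks at 5 Gy, 12 overlapped a 0 Gy peak by at least 1 bp (66.7%, Wilson 95% interval 43.7 to 83.7). Over all 5 Gy peaks the share was 73.0%. Of the 23 peaks at 0 Gy, 17 overlapped a 5 Gy peak (73.9%, 95% interval 53.5 to 87.5), against 58.1% of all 0 Gy peaks. Under a stricter rule, in which the overlap spans 50% or more of both peaks, sharing came to 61.1% of the 5 Gy peaks in the genes (55.4% of the whole list) and 47.8% of the 0 Gy peaks (41.9% of the whole list). At 1 bp, both shares over the whole lists lay within the intervals of the genes' peaks, so the sharing of peaks in these genes could not be told apart from that of the lists at this number of peaks. The intervals cover counting error only and treat neighbouring peaks as independent.

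The peaks without a counterpart were of different kinds. Of the 6 unmatched 5 Gy peaks, those of CDKN1A and GADD45A scored from 274.28 to 317.17 and those of CCNG1, SESN1 and PPM1D from 70.32 to 87.40. Of the 6 unmatched 0 Gy peaks, the one in PLK2 scored 584.65 and the others from 61.83 to 145.03.

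The peak number and the covered length of the genes together ran in opposite directions. The 18 peaks at 5 Gy were 78.3% of the 23 at 0 Gy (95% interval 42.6 to 143.7), and the whole 5 Gy list held 75.6% of the number at 0 Gy. In all 9 spans 19744 bp were covered after 5 Gy and 16821 bp at 0 Gy, or 117.4%, and over the whole lists it was 91.7%. Without GADD45A, which adds cover at 5 Gy alone, the covered length at 5 Gy was 102.7% of that at 0 Gy. Of the covered length, 11604 bp was common to both doses, which is 58.8% of that at 5 Gy and 69.0% of that at 0 Gy.

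Gene by gene, covered length was at least 1.5 times higher at 5 Gy in 3 of the 7 genes with a peak (CDKN1A, BTG2 and GADD45A) and at least 1.5 times lower in 2 (PLK2 and SESN1). CCNG1 and PPM1D lay between. Of the lower pair, SESN1 depended on the setting. The SESN1 ratio was 1.24 when only peaks with a score of at least 100 were kept. It was 1.095 with equal list sizes, a setting that cannot lower it, and 0.607 over whole peaks. Neither setting by score removes a PLK2 peak, so the PLK2 ratio could not move under them. For a background, neighbouring peaks of either list were chained over gaps of up to 10 kb, which gave 15970 joined regions, of which 18.0% had at least 1.5 times more cover at 5 Gy and 33.5% at least 1.5 times less. Among the 8629 regions with 1 kb or more covered at either dose, the shares were 12.0% and 22.4%. The cover of SESN1 reaches 1 kb only as the sum of separate regions, so it would not enter this narrower background. Regions are not genes and can be longer, and 7 genes are too few to set their counts apart from these shares.

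The ratios of the 6 genes with peaks at both doses ran from 0.576 (PLK2) to 1.79 (CDKN1A), with a median of 1.04. Over 7961 regions of at least 1 kb with cover at both doses the median was 0.974 and the quartiles were 0.764 and 1.12. CDKN1A, BTG2 and CCNG1 lay above the upper quartile, PLK2 and SESN1 below the lower, and PPM1D between them. The SESN1 ratio is a sum over separate regions that would not enter this set of regions. The PPM1D ratio is a sum over 3 separate regions, of which only that at the 3′ end reaches 1 kb. The genes did not share a direction. The order holds for the lists as deposited, since the ratios of SESN1 and PPM1D turned above 1 under other settings.

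**Figure D5:**
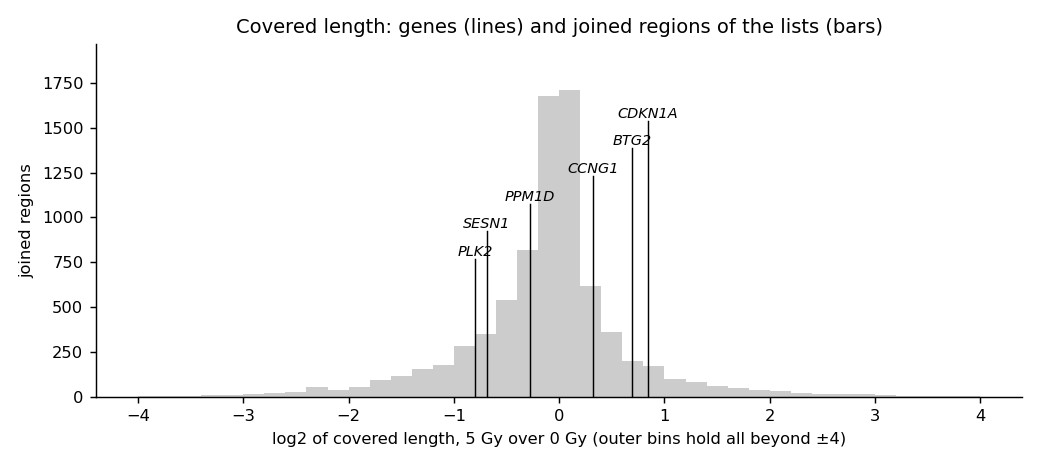
Covered length at 5 Gy over 0 Gy, on a log2 scale, for 7961 joined regions of the whole lists (grey bars, number of regions) and for the 6 genes with peaks at both doses (black lines at their ratio, with heights set only to separate the names). The genes lie on both sides of the regions' median of 0.974, from 0.576 for PLK2 to 1.79 for CDKN1A. The SESN1 ratio is a sum over separate regions that are not in the bars. The PPM1D ratio is a sum over 3 separate regions, of which only that at the 3′ end reaches 1 kb.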

How the data were processed

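RNA immunoprecipitation sequencing (RIP-seq) of WS1 fibroblasts was available as 2 lists of peaks, 1 per dose, each a HuR library over the IgG library of the same dose. The deposited peak scores are the authors' own. The tools cutadapt 1.9.1 and Bowtie2 2.2.4 and the build hg19 are named in the submitters' processing notes. Peak names begin with MACS, and the list names carry 1e-06, 10 and 30. The sources used here do not give the caller version, antibody, crosslinking or strand. Lists hold no read counts, so depth is unknown and no interval from reads was possible. Thresholded lists also show no signal below the limit.

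The gene spans were given with the task on hg19, and peaks were assigned with at least 1 bp of overlap, strand ignored. All 9 genes were named by rule, with the number, cover, and highest-scoring peak per dose. The genes and lists were chosen with earlier results of these data known. Strand, neighbours and promoters came from RefSeq tables of GRCh38.p14, with no coordinates carried between builds. Other p53 targets and cell type markers, listed for use with an hg19 annotation, were not analysed here. Python 3.11.15, numpy 2.4.6, scipy 1.17.1, pandas 2.3.3 and matplotlib 3.10.9 were used. Overlap counting was tested on simulated peaks.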

Additional observations from a re-analysis of the deposited data

How the results depend on the processing

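For the presence of peaks 4 alternatives were tried: a minimum score of 100, equal list sizes, the peak centre in the span, and 5 kb added to the spans. Under each, 7 genes had a peak at 5 Gy and 6 at 0 Gy. Every gene with peaks had one scoring at least 157.87, so neither setting by score could remove a gene. A gene without a peak had its nearest one 13.1 kb or more away, beyond the added 5 kb. Only the peak centre could therefore have changed these counts. Peak number at 5 Gy as a percentage of 0 Gy ranged from 73.9 to 90.0 over 7 alternatives, within the counting interval. Covered length at 5 Gy, 117.4% of that at 0 Gy, was 130.6% at scores of at least 100, 128.0% with equal list sizes, 112.1% by peak centre, 117.9% with 5 kb added, 123.7% without SESN1 and 102.7% without GADD45A. With at least 50% of each peak overlapping, 47.8% of 0 Gy peaks were shared in place of 73.9%. The SESN1 ratio of 0.621 became 1.237 at scores of at least 100 and 1.095 with equal list sizes, and the PPM1D ratio of 0.825 became 1.038 with equal list sizes. In these settings low-scoring peaks are left out by construction. With equal list sizes they are left out of the 0 Gy list alone. That setting can therefore raise a 5 Gy over 0 Gy ratio of covered length but not lower it. The BTG2 ratio of 1.62 was 2.349 at scores of at least 100, where its weakest 0 Gy peak drops out. The CDKN1A and PLK2 ratios were the same at scores of at least 100 and with equal list sizes. Neither setting removes any peak of these genes, so neither could test their ratios. With whole peak lengths the ratio was 1.796 for CDKN1A, 0.6244 for PLK2 and 0.6072 for SESN1. The settings without GADD45A and with whole peak lengths were chosen after seeing the data. No paired analysis was possible because no group holds more than 1 library. The unknown read depth limits every comparison between the lists.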
